A study of Homo sapiens with 4 samples.

Results

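The let-7 family guide strands are the miRNAs loaded from the 5p arm of the let-7 and miR-98 hairpins, and 9 of them (hsa-let-7a-5p, hsa-let-7b-5p, hsa-let-7c-5p, hsa-let-7d-5p, hsa-let-7e-5p, hsa-let-7f-5p, hsa-let-7g-5p, hsa-let-7i-5p and hsa-miR-98-5p, written without the species prefix from here on) were taken by name from the 2588 mature miRNAs listed in each library. Their level was followed in exosomes, small vesicles released into the medium, from HCT15 and HCT29, as the labels name them, both human colon cancer lines. The parental groups of both lines were grown in complete RPMI medium, and their exosomes were collected in an exosome-depleted form of it. The sphere groups were floating colonies expanded for 3 weeks in DMEM/F12 with N2 supplements, 10 ng/ml bFGF and 10 ng/ml EGF, a defined medium used to enrich for stem-like cells. The growth text of both HCT29 samples names HCT15, so the origin of these libraries is uncertain. Each line and culture is 1 library, so a ratio between libraries carries counting error but no replicate error.

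let-7 miRNAs are read out by Argonaute proteins, which use the seed (bases 2 to 8) to pair with target mRNAs and repress them. Known targets include RAS genes, MYC, HMGA2 and LIN28, and the LIN28 proteins in turn block let-7 maturation. This loop holds let-7 low in embryonic and many stem-like cells and high in differentiated tissue, where let-7 acts as a tumour suppressor. All 9 guide strands are of the same length, 22 bases, and carry the same seed, in capitals here (RefSeq, GRCh38.p14). They are shown because their counts can be told apart by few bases.
let-7a-5p: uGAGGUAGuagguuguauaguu
let-7c-5p: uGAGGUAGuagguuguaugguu
let-7b-5p: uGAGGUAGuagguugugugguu
let-7e-5p: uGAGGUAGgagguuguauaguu
let-7f-5p: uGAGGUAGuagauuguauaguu
let-7d-5p: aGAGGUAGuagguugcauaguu
miR-98-5p: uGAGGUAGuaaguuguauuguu
let-7g-5p: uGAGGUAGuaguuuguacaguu
let-7i-5p: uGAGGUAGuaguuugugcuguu

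With positions counted from 1 at the 5′ end and let-7a-5p first, the only difference is A19G in let-7c-5p, U9G in let-7e-5p and G12A in let-7f-5p. let-7b-5p differs by A17G and A19G, and let-7d-5p by U1A and U16C. miR-98-5p differs by G11A and A19U, let-7g-5p by G12U and U18C, and let-7i-5p by G12U, A17G, U18C and A19U. Of the 36 pairs of members, 4 differ by 1 base, so a rule that allows a mismatch could move reads between them, and the aligner is not given in the sources used here. A further 2 listed miRNAs share the seed, miR-4458 and miR-4500, and each had 0 reads in all 4 libraries.

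The guide strands come from 12 hairpins on 8 chromosomes (GRCh38). let-7a-1 (chr9:94175957-94176036), let-7f-1 and let-7d lie within 2964 bases in introns of the long noncoding gene AL158152.2 (GENCODE annotation). let-7a-3 and let-7b (chr22:46113686-46113768) lie within 1020 bases in an exon of MIRLET7BHG. let-7a-2 lies in an intron of MIR100HG on chromosome 11, let-7c in an intron of MIR99AHG (chr21:16539828-16539911), and let-7e in an intron of SPACA6 on its own strand and across an exon of the antisense SPACA6P-AS (chr19:51692786-51692864). miR-98 (chrX:53556223-53556341) and let-7f-2 share an intron of HUWE1, let-7g lies in an intron of WDR82 on chromosome 3, and let-7i in an intron of AC048341.1 on chromosome 12, touching an exon of the antisense LINC01465. Reads of let-7a-5p pool 3 hairpins and those of let-7f-5p pool 2.

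Values are RPM, reads scaled by the authors to a common library total. They convert to whole reads, with implied totals of 110666 to 146648 reads in the parental and 461226 to 530920 in the sphere libraries. The same RPM therefore rests on fewer reads in a parental library. Intervals are exact 95% intervals on those reads and cover counting error only. All 9 members had reads in all 4 libraries, from 15 for let-7c-5p in parental HCT29 to 6353 for let-7a-5p in parental HCT15. The labels name colon cancer cells, and all 8 markers of colon epithelium, among them miR-192-5p and the miR-200 family, had reads in all 4 libraries. Their summed level was 14722 RPM in parental HCT15, 22713 in HCT15 spheres, 96552 in parental HCT29 and 131997 in HCT29 spheres. The markers did not move together. In HCT29 spheres miR-192-5p, miR-215-5p and miR-375 were higher than in parental HCT29, miR-375 with 45016 RPM beside 994. There miR-194-5p, miR-141-3p, miR-200a-3p, miR-200b-3p and miR-200c-3p were lower. In HCT15 spheres miR-200b-3p, miR-200c-3p and miR-375 were lower than in parental HCT15, and the other markers were higher, miR-141-3p with 10041 RPM beside 996.

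The family as a whole was highest in parental HCT15 exosomes. The summed RPM of the 9 guide strands was 87222 in parental HCT15, 27616 in HCT15 spheres, 41973 in parental HCT29 and 26454 in HCT29 spheres. These sums are 11.2% (11.0 to 11.4), 3.07% (3.02 to 3.13), 4.81% (4.67 to 4.95) and 3.05% (3.00 to 3.10) of the listed miRNA reads, in the same order. In RPM the sphere libraries lay close to each other, with an HCT29 to HCT15 ratio of 0.958, and the parental libraries apart, at 0.481. This order depends on the scaling: with the scaling methods TMM and DESeq2 size factors the sphere ratio turned to 1.68 and 1.55, and the parental one was 0.572 and 0.608. Summed RPM was 3.16-fold lower in HCT15 spheres than in their parental cells (3.08 to 3.24) and 1.59-fold lower in HCT29 spheres (1.53 to 1.64). In bulk libraries, fewer vesicles that carry let-7 and less let-7 per vesicle cannot be told apart.

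The direction in HCT29 depends on the scaling. TMM (edgeR) and the size factors of DESeq2 replace the library total by a factor estimated from the ratios of many miRNAs. They gave a sphere to parental ratio of the sum of 0.483 and 0.457 in HCT15, but of 1.42 and 1.17 in HCT29, where RPM gave 0.630. Neither factor set the measured miRNAs level. Their median log2 ratio was -0.12 in RPM, 0.49 under TMM and 0.41 under DESeq2 size factors in HCT15, and -0.57, 0.58 and 0.31 in HCT29, so the HCT29 ratios above 1 stand beside a median that is also above 0 on the log2 scale. Set against the median of all measured miRNAs, a measure that the scaling hardly changes, the members' median log2 ratio was -0.80 in HCT15 and -0.05 in HCT29 (-0.80 and -0.03 under TMM).

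**Figure D1:**
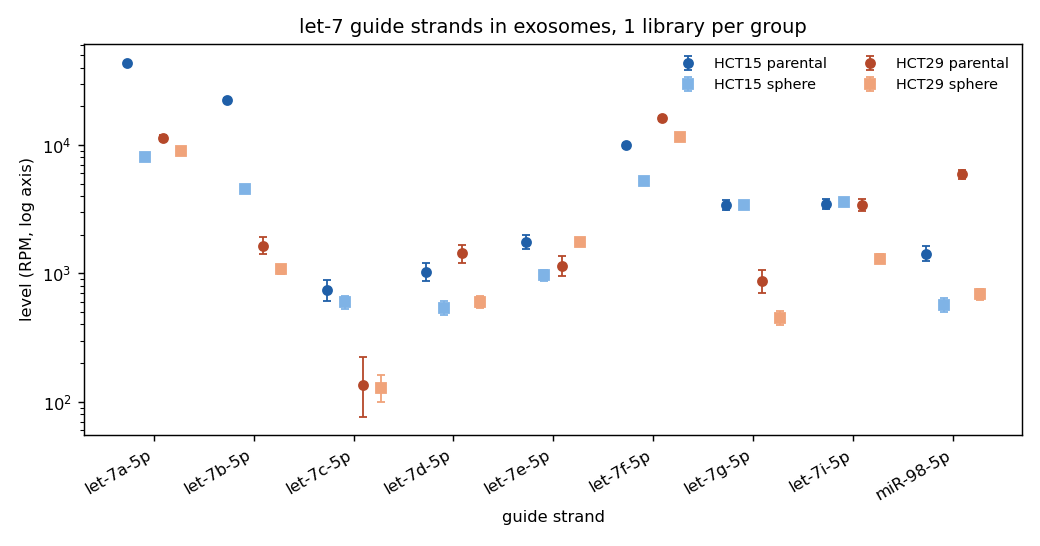
Level of each guide strand in RPM (log axis) in the 4 libraries, 1 per group, with exact 95% counting intervals as bars. let-7a-5p and let-7b-5p stand highest in parental HCT15, at 43321 and 22203 RPM, and let-7f-5p leads in both HCT29 libraries. let-7c-5p is the lowest member in both HCT29 libraries and in parental HCT15.

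let-7a-5p and let-7b-5p, which both repress RAS and HMGA2, were the leading members of parental HCT15 exosomes, where they held 75.1% of the family reads. let-7a-5p stood at 43321 RPM in parental HCT15, 8115 in HCT15 spheres, 11331 in parental HCT29 and 8917 in HCT29 spheres, rank 4, 19, 13 and 15 among all listed miRNAs. let-7b-5p stood at 22203, 4555, 1645 and 1074 RPM in the same order, rank 8, 28, 43 and 42. For both, parental HCT15 is the high library. For let-7b-5p both HCT15 libraries lie above both HCT29 ones.

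In HCT15 spheres let-7a-5p was 5.34-fold lower (5.13 to 5.56) and let-7b-5p 4.87-fold lower (4.61 to 5.15), and both stayed at least 2-fold lower under TMM scaling (log2 ratios -1.81 and -1.67) and DESeq2 size factors (-1.89 and -1.76). Relative to the median log2 ratio of all measured miRNAs in this line they lay at -2.30 and -2.17. In HCT29 spheres let-7a-5p was 1.27-fold lower in RPM (1.19 to 1.35) and let-7b-5p 1.53-fold lower (1.29 to 1.81), and both turned higher under TMM, with log2 ratios of 0.82 and 0.55, and under DESeq2 size factors (0.54 and 0.27). The ratio of let-7b-5p to let-7a-5p reads, which no scaling touches, differed by line: 0.513 (0.491 to 0.535) in parental HCT15 and 0.561 (0.532 to 0.592) in HCT15 spheres, against 0.145 (0.124 to 0.170) and 0.120 (0.110 to 0.131) in HCT29 parental and HCT29 sphere exosomes. The intervals of the lines do not overlap in either culture.

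let-7f-5p, made from the let-7a-1 neighbour on chromosome 9 and from the X chromosome, had 9908 RPM in parental HCT15, 5245 in HCT15 spheres, 16084 in parental HCT29 and 11548 in HCT29 spheres. HCT29 is the higher line in each culture. Its reads over those of let-7a-5p were 0.229 (0.216 to 0.242) and 0.646 (0.614 to 0.680) in HCT15 parental and HCT15 sphere exosomes, and 1.42 (1.32 to 1.53) and 1.30 (1.25 to 1.35) in HCT29, so let-7f-5p led in both HCT29 libraries and let-7a-5p in both HCT15 ones. let-7f-5p was 1.89-fold lower in HCT15 spheres (1.77 to 2.02) and 1.39-fold lower in HCT29 spheres (1.32 to 1.47), the latter turning to a log2 ratio of 0.69 under TMM and 0.41 under DESeq2 size factors.

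miR-98-5p, which shares the HUWE1 intron with let-7f-2, had the largest sphere difference among the members in HCT29. It stood at 1425 RPM in parental HCT15, 566 in HCT15 spheres, 5919 in parental HCT29 and 687 in HCT29 spheres, where parental HCT29 is the high library and the other 3 lie within 566 to 1425. In HCT29 spheres it was 8.61-fold lower (7.56 to 9.81). Its log2 ratio of -3.10 was -1.94 under TMM and -2.22 under DESeq2 size factors, and lay at -2.54 relative to the median of all measured miRNAs. In HCT15 spheres it was 2.52-fold lower (2.09 to 3.03), and its log2 ratio of -1.33 came within 2-fold under TMM (-0.72) and DESeq2 size factors (-0.80). Reads of miR-98-5p over let-7f-5p ranged from 0.0595 (0.0534 to 0.0662) in HCT29 spheres to 0.368 (0.336 to 0.403) in parental HCT29, with 0.144 and 0.108 in HCT15 parental and HCT15 sphere exosomes.

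let-7d-5p, the third member of the chromosome 9 cluster, had 1030 RPM in parental HCT15, 540 in HCT15 spheres, 1428 in parental HCT29 and 601 in HCT29 spheres. Both sphere libraries lie below both parental ones. It was 1.91-fold lower in HCT15 spheres (1.55 to 2.34) and 2.38-fold lower in HCT29 spheres (1.95 to 2.88), and TMM left both within 2-fold (log2 ratios -0.32 and -0.08). Its reads over those of its cluster mate let-7f-5p were 0.104 (0.0873 to 0.123) and 0.103 (0.0900 to 0.117) in HCT15 parental and HCT15 sphere exosomes, and 0.0888 (0.0750 to 0.104) and 0.0520 (0.0463 to 0.0582) in HCT29.

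In RPM, let-7e-5p was the member whose sphere ratio pointed in opposite directions in the lines with both intervals clear of 1. It had 1746 RPM in parental HCT15, 963 in HCT15 spheres, 1148 in parental HCT29 and 1750 in HCT29 spheres. The ratio of sphere to parental was 0.551 (0.472 to 0.646) in HCT15 and 1.52 (1.26 to 1.85) in HCT29. Relative to the median log2 ratio of all measured miRNAs these lay at -0.74 and 1.18. Under TMM the HCT29 log2 ratio of 0.61 became 1.78, and the HCT15 one of -0.86 became -0.25. Under TMM and DESeq2 size factors, let-7a-5p, let-7b-5p, let-7f-5p and let-7i-5p also had log2 ratios of opposite sign in the lines. let-7g-5p did so under DESeq2 size factors only, so the opposite directions are particular to let-7e-5p in RPM alone. The hairpin lies with those of miR-99b and miR-125a on chromosome 19. In HCT29, miR-125a-5p had 1057 RPM in parental and 10052 in sphere exosomes (9.51-fold higher, 7.92 to 11.5) while miR-99b-5p had 123082 and 110431 RPM (ratio 0.897, 0.881 to 0.914). Reads of miR-125a-5p over let-7e-5p were 3.68 (3.20 to 4.24) and 8.08 (7.32 to 8.94) in HCT15 parental and HCT15 sphere exosomes and 0.921 (0.710 to 1.19) and 5.74 (5.36 to 6.17) in HCT29.

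let-7c-5p was the scarcest member in both HCT29 libraries and in parental HCT15. It had 736 RPM in parental HCT15, 596 in HCT15 spheres, 136 in parental HCT29 and 128 in HCT29 spheres, so both HCT15 libraries lie above both HCT29 ones. The sphere ratio was 0.810 (0.646 to 1.02) in HCT15 and 0.945 (0.535 to 1.78) in HCT29, intervals that include 1. Both log2 ratios, -0.30 and -0.08, turned positive under TMM (0.31 and 1.08, the latter past 2-fold) and DESeq2 size factors (0.22 and 0.80). With 15 reads in parental HCT29, a difference of the size seen in let-7f-5p was not detectable for it there. miR-99a-5p, which shares the let-7c host gene, had 4, 1, 1 and 0 reads in parental HCT15, HCT15 spheres, parental HCT29 and HCT29 spheres. Reads of let-7c-5p over let-7a-5p, which differ by 1 base, were 0.0170 (0.0139 to 0.0206), 0.0735 (0.0648 to 0.0831), 0.0120 (0.00667 to 0.0198) and 0.0144 (0.0111 to 0.0182) in that order, and whether let-7a-5p reads contribute to let-7c-5p was not tested.

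In RPM let-7g-5p and let-7i-5p were level between the HCT15 libraries and lower in HCT29 spheres. let-7g-5p had 3389 RPM in parental HCT15, 3430 in HCT15 spheres, 867 in parental HCT29 and 448 in HCT29 spheres. let-7i-5p had 3464, 3606, 3416 and 1302 RPM in the same order. let-7g-5p split the lines, while for let-7i-5p HCT29 spheres alone stands low. In HCT15 the sphere ratios were 1.01 (0.914 to 1.12) for let-7g-5p and 1.04 (0.942 to 1.15) for let-7i-5p, with TMM log2 ratios of 0.63 and 0.67. In HCT29 let-7i-5p was 2.62-fold lower (2.31 to 2.98) and let-7g-5p 1.94-fold lower (1.51 to 2.46), which TMM took to log2 ratios of -0.22 and 0.22. Reads of let-7i-5p over let-7g-5p were 1.02 (0.901 to 1.16) and 1.05 (0.981 to 1.13) in HCT15 and 3.94 (3.14 to 4.98) and 2.90 (2.50 to 3.38) in HCT29.

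**Figure D2:**
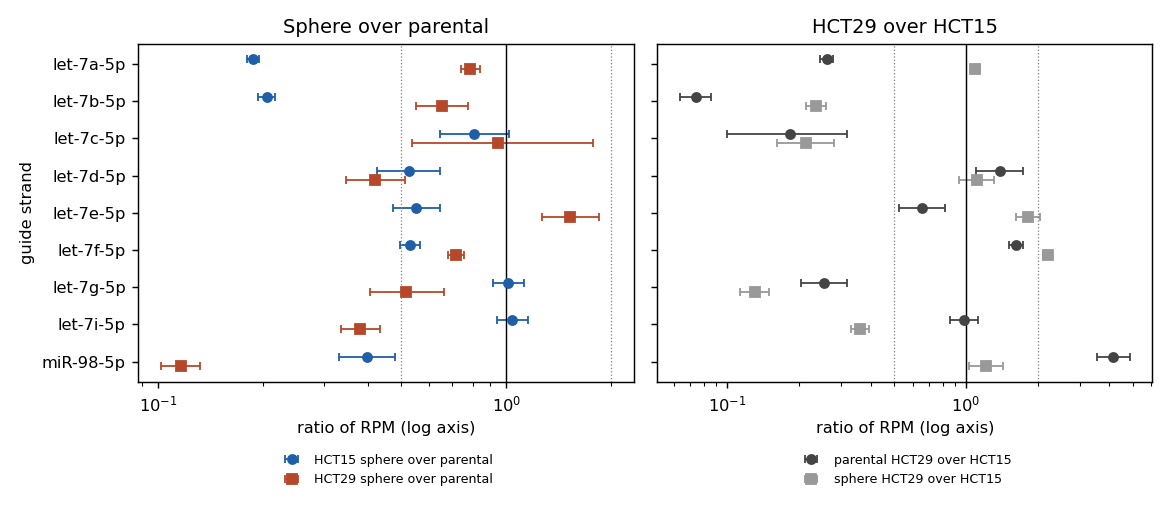
Ratio of RPM (log axis) of each guide strand, sphere over parental in each line on the left and HCT29 over HCT15 in each culture on the right, with exact 95% counting intervals; dotted lines mark 2-fold and 1 library stands behind each group. let-7a-5p and let-7b-5p lie furthest left in HCT15 spheres and miR-98-5p in HCT29 spheres, and let-7e-5p lies on opposite sides of 1 in the lines.

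Counting members against the background, 3 of 9 (let-7a-5p, let-7b-5p and miR-98-5p) had ratios 2-fold or more below 1 in HCT15 spheres and 0 above, where 28.2% of the 305 measured miRNAs were lower and 32.1% higher. In HCT29 spheres 3 of 9 (let-7d-5p, let-7i-5p and miR-98-5p) were lower and 0 higher, against 36.2% lower and 23.2% higher of 224. Both shares of lower members are near the background, and no member was higher. A miRNA counted as measured where either library held at least 10 of its reads, and all 9 members passed in every comparison. The members' median log2 ratio was -0.92 in HCT15, beside -0.12 for all measured miRNAs, and -0.61 in HCT29, beside -0.57. Intervals lay below 1 for 6 members in HCT15 and 7 in HCT29, and above 1 for 0 and 1. Among all measured miRNAs 36.4% lay below and 27.5% above 1 in HCT15, and 42.9% below and 17.9% above in HCT29, a share that also depends on the reads behind each miRNA. TMM left 2 members lower (let-7a-5p and let-7b-5p) and 0 higher in HCT15, where it put 16.7% of all measured miRNAs lower and 40.3% higher. In HCT29 it left 1 lower (miR-98-5p) and 2 higher (let-7c-5p and let-7e-5p), beside 16.1% lower and 42.0% higher.

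**Figure D3:**
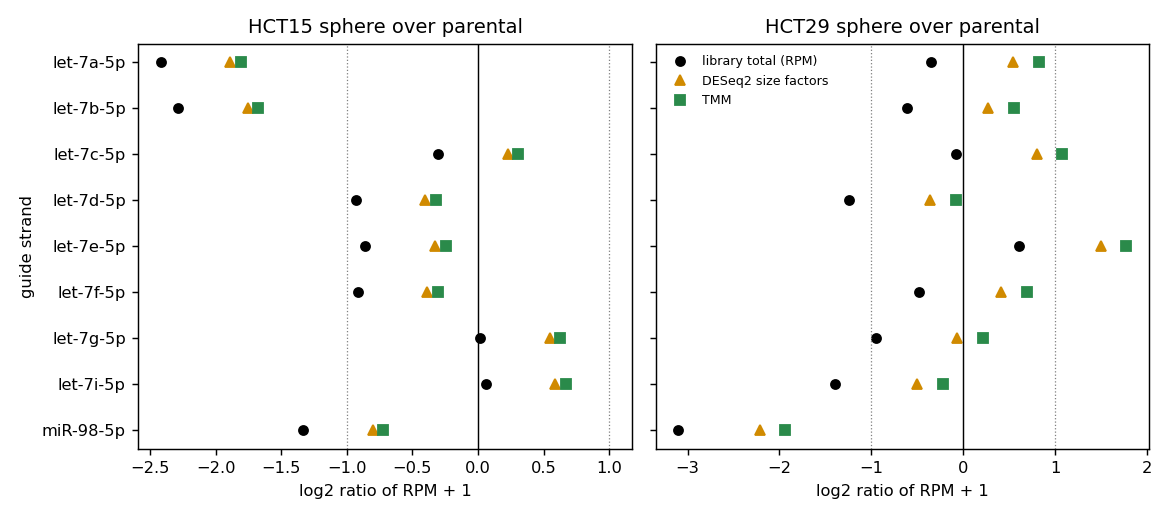
log2 ratio of RPM + 1, sphere over parental, of each guide strand in HCT15 (left) and HCT29 (right) when libraries are scaled by their total, by DESeq2 size factors or by TMM; dotted lines mark 2-fold and each group is 1 library. All points of a line shift together, let-7a-5p and let-7b-5p stay beyond 2-fold in HCT15 and miR-98-5p in HCT29, and in HCT29 let-7a-5p, let-7b-5p, let-7c-5p and let-7f-5p change sign under both.

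Between the lines, the parental exosomes of HCT29 held less of let-7b-5p (13.5-fold lower, 11.6 to 15.8), let-7c-5p (5.43-fold, 3.15 to 10.0), let-7g-5p (3.91-fold, 3.13 to 4.91) and let-7a-5p (3.82-fold, 3.60 to 4.06) than those of HCT15 and more miR-98-5p (4.15-fold higher, 3.55 to 4.88). That is 4 members lower and 1 higher, against 46.4% lower and 22.8% higher of 224 measured miRNAs. In sphere exosomes HCT29 was lower in let-7g-5p (7.65-fold, 6.67 to 8.81), let-7c-5p (4.66-fold, 3.56 to 6.16), let-7b-5p (4.24-fold, 3.87 to 4.66) and let-7i-5p (2.77-fold, 2.53 to 3.03) and higher in let-7f-5p (2.20-fold, 2.10 to 2.31). The background there was 56.0% lower and 25.2% higher of 325. let-7i-5p came within 2-fold under TMM (log2 ratio -0.66) and DESeq2 size factors (-0.77). TMM left 3 members lower and put 3 higher in spheres (let-7e-5p, let-7f-5p and miR-98-5p), where 47.1% of all measured miRNAs were lower and 32.0% higher. The members' median log2 ratio was -0.60 in parental exosomes, beside -0.84 for all measured, and 0.14 in spheres, beside -1.47. In parental exosomes the order of these medians depends on the filter: with at least 50 reads the median of all measured was -0.48. These line comparisons use the same 4 libraries as the sphere comparisons. let-7b-5p, let-7c-5p and let-7g-5p were at least 2-fold lower in HCT29 in both cultures under RPM, TMM and DESeq2 size factors.

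With the lines as replicates, limma on log2(RPM + 1) across all 4 libraries found 0 of 9 members past a Benjamini-Hochberg adjusted p of 0.05 between spheres and parental cells, where 0% of the 222 miRNAs tested passed in either direction. None of the members had an unadjusted limma p under 0.05. With edgeR, DESeq2 and limma voom 0 members were called too, beside 0, 1 and 1 of all 222 miRNAs. miR-98-5p had the smallest p of the members, lower in spheres of 2 of 2 lines with a log2 difference of -2.22 (SE 1.32, limma adjusted p 0.968). For the line difference limma called 0 of 9 members, beside 3.60% of the 222 called higher in HCT29 and 9.01% lower. The member nearest to a call, let-7b-5p, was lower in HCT29 in both cultures with a log2 difference of -2.92 (SE 1.28, unadjusted p 0.0232, limma adjusted p 0.132). edgeR, DESeq2 and limma voom also called 0 members for the line, beside 10, 16 and 20 of all 222 miRNAs tested. The fit has 1 residual degree of freedom, so these p-values rest on a spread pooled over miRNAs, and the libraries of a line are different cultures, not repeats.

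Within the family, the makeup of each library is free of its scaling. let-7a-5p and let-7b-5p held 49.7% (48.8 to 50.5) and 25.5% (24.7 to 26.2) of the family reads in parental HCT15, and 29.4% (28.6 to 30.2) and 16.5% (15.9 to 17.2) in HCT15 spheres. let-7g-5p held 3.89% in the former and 12.4% in the latter, and let-7i-5p 3.97% and 13.1%. In HCT29, let-7f-5p held 38.3% (36.9 to 39.7) of the parental and 43.7% (42.8 to 44.5) of the sphere family reads, and let-7a-5p 27.0% and 33.7%. miR-98-5p held 14.1% (13.1 to 15.1) of the family in parental HCT29 and 2.60% (2.34 to 2.88) in HCT29 spheres, beside 1.63% and 2.05% in HCT15.

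**Figure D4:**
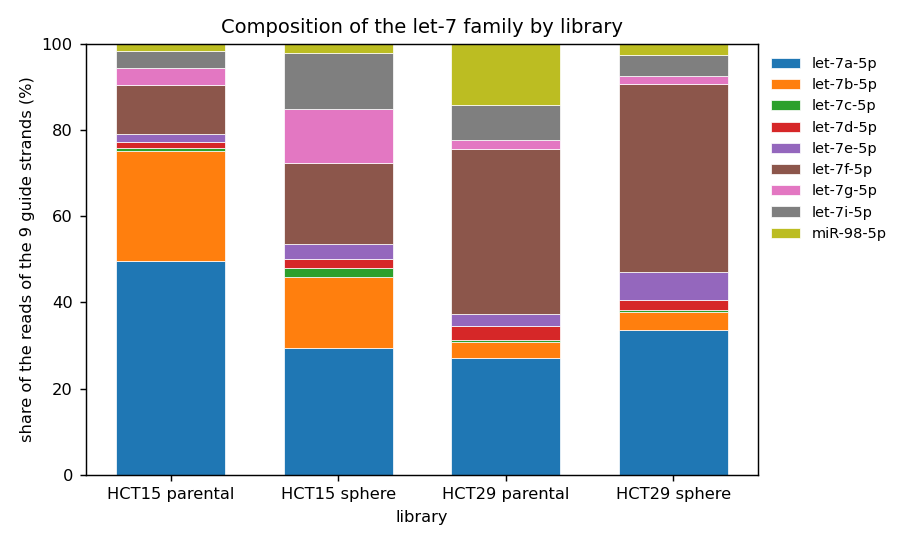
Share of the reads of the 9 guide strands held by each (percent, stacked to 100) in the 4 libraries, 1 per group. let-7a-5p and let-7b-5p fill most of parental HCT15 (49.7% and 25.5%), let-7f-5p is the widest band in both HCT29 libraries (38.3% and 43.7%), and miR-98-5p is wide in parental HCT29 (14.1%).

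The order of the members therefore differed between the libraries. In parental HCT15 it ran let-7a-5p, let-7b-5p, let-7f-5p, let-7i-5p, let-7g-5p, let-7e-5p, miR-98-5p, let-7d-5p and let-7c-5p, and of the 8 neighbouring pairs 1 (let-7i-5p and let-7g-5p) did not differ beyond counting error. In HCT15 spheres let-7f-5p passed let-7b-5p, and 3 pairs did not differ: let-7i-5p and let-7g-5p, let-7c-5p and miR-98-5p, and miR-98-5p and let-7d-5p. In parental HCT29 it ran let-7f-5p, let-7a-5p, miR-98-5p, let-7i-5p, let-7b-5p, let-7d-5p, let-7e-5p, let-7g-5p and let-7c-5p, where let-7b-5p and let-7d-5p, and let-7d-5p and let-7e-5p, did not differ. In HCT29 spheres let-7e-5p took the third place, and miR-98-5p and let-7d-5p did not differ.

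Precursors of let-7c and let-7e end in a longer 3′ overhang, which Dicer takes directly, while those of let-7b, let-7d, let-7f, let-7g, let-7i and miR-98 need an added uridine first. let-7a has precursors of both kinds. The pair let-7c-5p and let-7e-5p held 2.85% (2.56 to 3.15) of the family reads in parental HCT15 and 5.64% (5.25 to 6.06) in HCT15 spheres, and 3.06% (2.58 to 3.59) and 7.10% (6.68 to 7.54) in HCT29 parental and HCT29 sphere exosomes, a higher share in the sphere library of both lines. The other class of 6 held 47.5% and 65.0% in HCT15 and 69.9% and 59.2% in HCT29, parental and sphere, higher in the sphere library of HCT15 and lower in that of HCT29. Most reads of the smaller class are let-7e-5p. In RPM the pair was lower in HCT15 spheres (1559 beside 2482) and higher in HCT29 spheres (1878 beside 1283). A share also moves with let-7a-5p, which is in neither class and held 49.7% of the family reads in parental HCT15 and 29.4% in HCT15 spheres. let-7e-5p is also the 1 member with the letters GGAG, described as a motif of miRNAs sorted into exosomes, which 15.7% of the 2281 listed miRNAs with a RefSeq sequence hold on the mature strand. CCCU, the other motif searched, was in 0 of 9 members and 12.1% of those listed.

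Of the 11 listed passenger strands (the 3p arms of the same hairpins), 2 had 0 reads in all libraries (let-7a-2-3p and let-7c-3p), and together they held 1.94% of the reads of both arms in parental HCT15 (1.71 to 2.19), 2.23% in HCT15 spheres (1.98 to 2.49), 0.854% in parental HCT29 (0.611 to 1.16) and 2.78% in HCT29 spheres (2.52 to 3.06). let-7d-3p alone gave 136 of the 253 passenger reads in parental HCT15, 119 of 290 in HCT15 spheres, 26 of 40 in parental HCT29 and 367 of 402 in HCT29 spheres. The higher pooled share in HCT29 spheres is therefore mostly that strand. In 6 hairpins with arms of their own, let-7b, let-7c, let-7e, let-7g, let-7i and miR-98, the 3p arm held 0 to 6.79% in any library. let-7d stood apart from them, except that in parental HCT29 its interval overlaps that of let-7c. There let-7c had 0 reads of the 3p arm beside 15 of the 5p arm (0 to 21.8%).
let-7d-5p: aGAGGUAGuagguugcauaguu
let-7d-3p: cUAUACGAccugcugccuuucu

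The arms of let-7d, printed with bases 2 to 8 in capitals, have different seeds. The 3p arm had 136 reads beside 151 of the 5p arm in parental HCT15, 119 beside 249 in HCT15 spheres, 26 beside 158 in parental HCT29 and 367 beside 319 in HCT29 spheres. Its share of both arms was 47.4% (41.5 to 53.3), 32.3% (27.6 to 37.4), 14.1% (9.44 to 20.0) and 53.5% (49.7 to 57.3) in that order. The share was lower in spheres than in parental exosomes of HCT15 and higher in HCT29. In RPM, let-7d-3p was 3.59-fold lower in HCT15 spheres (2.79 to 4.64) and 2.94-fold higher in HCT29 spheres (1.98 to 4.57), while let-7d-5p was lower in both lines.

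**Figure D5:**
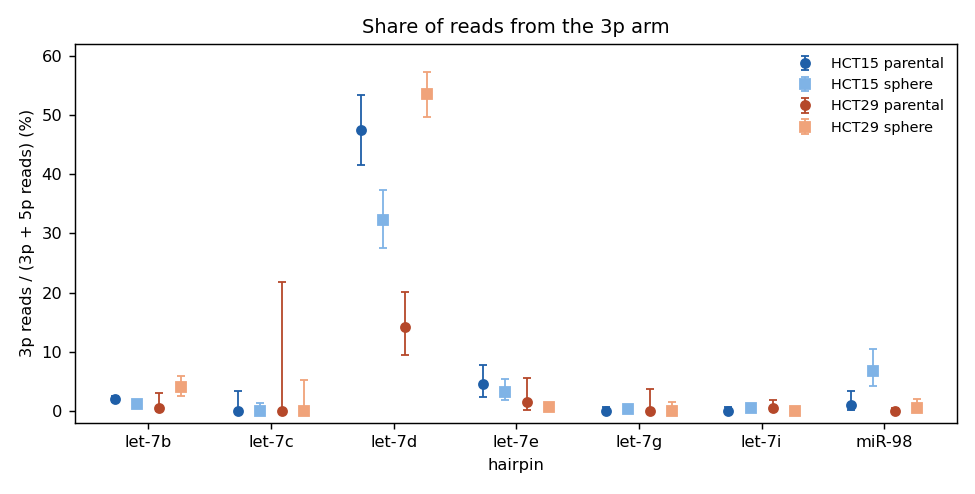
Share of 3p reads among the 3p and 5p reads of each hairpin (percent) in the 4 libraries, 1 per group, with exact 95% intervals, for the hairpins with both arms of their own. let-7d runs from 14.1% in parental HCT29 to 53.5% in HCT29 spheres, and the others lie at 6.79% or less. In parental HCT29 the wide interval of let-7c, which had 15 reads, overlaps that of let-7d.

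Partners of the let-7a-2 hairpin had a different order of libraries from let-7a-5p. miR-100-5p, from the MIR100HG transcript that also holds let-7a-2, had 252 RPM in parental HCT15, 7111 in HCT15 spheres, 127 in parental HCT29 and 92.3 in HCT29 spheres, and miR-125b-5p had 170, 1420, 36.1 and 22.6 RPM. Both were high in HCT15 spheres, where let-7a-5p was lowest in RPM, at 8115 beside 8917 in HCT29 spheres. Reads of let-7a-5p pool 3 hairpins, and miR-125b-5p is also a partner of let-7c. These levels therefore do not describe the let-7a-2 locus alone.

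Among 110 other miRNAs with at least 10 reads in each library, the 5 whose profile over the 4 libraries lay nearest to that of the family sum, by Euclidean distance of centred log2(RPM + 1), were miR-128-3p (distance 0.343), miR-200c-3p (0.350), miR-30e-3p (0.534), miR-769-5p (0.542) and miR-532-5p (0.601). The nearest member was let-7a-5p at 0.674, and the farthest were let-7b-5p and miR-98-5p at 2.40 and 2.45, beyond the median of 2.05 for the 110. The 4 libraries differ in depth and in makeup, which all of these profiles share.

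Markers of other cell types were measured beside these levels. Of 8 blood cell markers, 7 had reads in each parental library and 4 in each sphere library, where miR-451a, miR-144-3p, miR-144-5p and miR-223-3p were at 0. Their summed level was 4051 RPM in parental HCT15, 152 in HCT15 spheres, 1645 in parental HCT29 and 360 in HCT29 spheres, the same order of parental above sphere as the family sum in RPM. Most of each sum is miR-486-5p, with 3109, 115, 1437 and 322 RPM across these libraries. In parental HCT29, miR-451a, miR-144-3p, miR-142-3p, miR-150-5p and miR-223-3p had 1 to 3 reads each. miR-150-5p had 8 reads (15.1 RPM) in HCT29 spheres and 1 read (9.04 RPM) in parental HCT29, too few to order these libraries. The pair of endothelial miR-126 arms summed to 934, 158, 849 and 450 RPM in the same order, and the 3 nerve markers to 2012, 225, 325 and 158. Of the nerve markers, miR-9-5p and miR-124-3p had 0 reads in both HCT29 libraries, so those sums are miR-128-3p alone. In HCT15 spheres miR-128-3p held 223 RPM of the sum. Only in parental HCT15 did miR-9-5p (191 reads) and miR-124-3p (18 reads) add to it beyond 1 read. The liver and serum marker miR-122-5p had 0, 0, 1 and 0 reads, and the 5 fibroblast and smooth muscle markers summed to 1180, 4479, 1473 and 181 RPM. Most of each of these last sums is miR-143-3p, with 1077, 2886, 1184 and 168 RPM. miR-199a-5p and miR-214-3p had reads in HCT15 spheres only. The part of other cells or of medium in the let-7 levels was not tested.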

How the data were processed

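Small RNA libraries (TruSeq) were made from exosomes isolated by differential ultracentrifugation, 1 library for each of 4 groups, per the labels' protocols. The deposited values are RPM computed by the authors, as the file headers say for HCT15. The HCT29 headers name no unit, and those values were read as RPM because they behave alike. The genome build is hg19 per the submitters' processing notes. Dividing by the value of 1 read gave whole reads for 100% of nonzero values (tolerance 0.1 read), so 1 read is 6.82, 2.17, 9.04 and 1.88 RPM for parental HCT15, HCT15 spheres, parental HCT29 and HCT29 spheres.

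Calls use log2 ratios of RPM + 1 at 2-fold, where either library held at least 10 reads of the miRNA. Ratio intervals are conditional binomial, share intervals Clopper-Pearson and level intervals Poisson, all exact (scipy 1.17.1). limma 3.58.1 with a mean-variance trend, terms for line and culture, tested the miRNAs that reached 10 reads in 2 or more libraries, with a script tested on simulated data. edgeR 4.0.16 and DESeq2 1.42.0 on recovered reads were alternatives. The line is the replicate block, since both cultures come from it. Named were all 9 members, the 5 nearest profiles, and the passenger, same-seed, partner and marker lists. Members and lists were chosen with earlier results of these data known. Sequences are from RefSeq (GRCh38.p14), matched for 9 of 9 members, and host genes from GENCODE 29 (GRCh38).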

Additional observations from a re-analysis of the deposited data

Results flagged for a closer look

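Some RPM ratios pointed in opposite directions in the groups of a pair, with both counting intervals clear of 1. Which ratios do so depends on the scaling. Each group is 1 library, so these differences were not tested. The sphere to parental ratio of let-7e-5p was 0.551 in HCT15 and 1.52 in HCT29, and that of let-7d-3p was 0.278 in HCT15 and 2.94 in HCT29. The HCT29 to HCT15 ratio of let-7a-5p was 0.262 in parental and 1.10 in sphere exosomes, that of let-7e-5p 0.657 and 1.82, that of let-7d-3p 0.253 and 2.68, and that of the let-7e neighbour miR-125a-5p 0.165 and 1.29. No group held the 4 libraries needed to look for an outlying library.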

How the results depend on the processing

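The ratio of the summed RPM of the 9 members became, under TMM, DESeq2 size factors and the total of listed miRNAs, 0.483, 0.457 and 0.274 for HCT15 spheres, 0.572, 0.608 and 0.429 for HCT29 over HCT15 parental exosomes, and 1.68, 1.55 and 0.992 for HCT29 over HCT15 spheres, where RPM gave 0.317, 0.481 and 0.958. For HCT29 spheres TMM gave 1.42, DESeq2 size factors 1.17 and the listed total 0.634, where RPM gave 0.630. Without let-7a-5p, the member with the most reads, the ratios were 0.444 and 0.572 for HCT15 and HCT29 spheres and 0.698 and 0.899 between the lines in parental and sphere exosomes. Scaling to the listed total gave 6 members at least 2-fold lower in HCT15 spheres in place of 3, where 31.8% of all measured miRNAs were lower and 31.1% higher. In HCT29 spheres TMM gave 1 lower and 2 higher, beside 16.1% and 42.0% of all, and DESeq2 size factors 1 lower and 1 higher, beside 21.0% and 37.9%. Between the lines, DESeq2 size factors gave 4 members lower and 2 higher in HCT29 parental exosomes, beside 41.1% and 29.0% of all. In spheres TMM gave 3 lower and 3 higher, beside 47.1% and 32.0%, and DESeq2 size factors 3 lower and 2 higher, beside 48.0% and 30.5%, in place of 4 lower and 1 higher in RPM. Pseudocounts of 0.1 and 10, no filter and a minimum of 50 reads changed none of these counts of members. The filter did move the members' median log2 ratio set against that of all measured miRNAs. For HCT15 spheres it was -0.80 at 10 reads, -0.61 at 50 reads and -1.82 with no filter. For HCT29 spheres it was -0.05, -0.14 and 0.03 in the same order. All 11 alternatives to the limma fit of each effect, edgeR and DESeq2 among them, called 0 members. For culture the smallest adjusted p of a member ran from 0.850 (limma, no filter) to 0.999 (DESeq2). For line it ran from 0.142 (limma, listed total) to 0.370 (edgeR). Of all miRNAs tested, these alternatives called 0 or 1 for culture. For line they called from 5 to 27 of 222, or 17 of 905 with no filter. Dropping the replicate block, so that 2 parental libraries met 2 sphere libraries regardless of line, also gave 0 members. No library could be left out of the limma fit, which would then have no residual degrees of freedom. Depth limits the parental libraries most: a count of 0 allows up to 20.5 RPM in parental HCT15 and 27.1 in parental HCT29, taking 3 reads as the floor.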
